A study of Mus musculus with 20 samples.

Results

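The genes described here encode the proteins of the complement system and of blood coagulation that liver cells make and secrete, with a few that other cells of the organ make. A list of 43 gene symbols was set, and 41 of them had at least 1 probe set that the platform annotation pairs with exactly 1 symbol. C3 and Cpb2 were not analysed here. The 41 genes have 56 probe sets, and they stand among 18193 genes measured in all. They fall into 7 groups by role: complement components, the lectin pathway, complement inhibitors, clotting factors, the chains of fibrinogen, anticoagulants, and fibrinolysis with its regulators. Affymetrix 3' expression arrays measured liver RNA, 1 array per mouse, from 20 male mice of the strain C57BL/6J that had been fasted for 16 h and were labelled as 8 weeks of age. For 4 weeks, 10 mice ate a diet with 45 kcal% fat (HFD) and 10 ate that diet with 0.02% of the maple syrup extract named MSXH. All 20 mice thus shared the fat content, and no group on a low-fat diet is described here.

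Complement is a chain of plasma proteases and pore-forming proteins that marks and lyses foreign cells, and coagulation is a chain of proteases that ends in thrombin, which turns fibrinogen into fibrin. Hepatocytes are the main source of most of these proteins, so the liver sets their supply to the blood, and several belong to the acute phase proteins whose synthesis inflammation changes. Inhibitors of the serpin family, the protein C system and the plasmin system hold the chains in check.

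The deposited values are levels on a log scale, taken as log2, whose spread between arrays was very small: the median gene had an SD of 12.1 millionths of a log2 unit over the 20 arrays. Differences between mice are therefore given in millionths of a log2 unit from the gene's own mean over the 20 mice, and differences between diets as standardized differences (the MSXH mean less the HFD mean, in units of the SD pooled over both groups, 10 against 10 mice) with 95% intervals, never as folds of RNA. All 7 hepatocyte markers measured stood above every array median. Of the 41 genes, 38 also stood above every array median on all arrays. F3, Plat and Plau, whose products are known mainly from other cells than hepatocytes, stood below. Markers of skeletal muscle were high on 2 arrays, MSXH 4 and MSXH 6, so that the mean level of the 7 muscle markers ran from 6.2087 to 6.3232 in HFD and from 6.2115 to 8.9461 in MSXH. Counts of higher and lower means are given with and without these arrays.

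The comparison of the diets asks what the extract did to the expression of these genes. None of the 41 genes passed an adjusted p of 0.05 by limma, where 0 of 18193 genes did (0%), and the smallest adjusted p among the 41 was 0.359, for C6. At an unadjusted limma p under 0.05 stood 2 of the 41, C6 with the lower mean in MSXH and Serpinf2 with the higher, against 10.9% of all genes. By the exact rank sum test 1 of the 41 had an unadjusted p under 0.05, against 9.33% of all genes, and 0 passed after adjustment, against 0.022%. At an adjusted limma p of 0.10 stood 0.066% of all genes and still none of the 41. The count of 2 became 1 without HFD 10 or without MSXH 6, 4 without HFD 2, HFD 3 or HFD 8, and 5 without MSXH 3. The share of all genes in these fits is not given here, so these counts cannot be read against it. In MSXH 22 means were higher and 19 lower, with a median standardized difference of 0.0174, beside 54.7% of all genes higher and a median of 0.0669. Without MSXH 4 and 6, 27 were higher with a median of 0.162, beside 54.6% of all genes, and 3 were at an unadjusted limma p under 0.05, beside 10.3%. With each array centred on its median, 0 of the 41 were higher, beside 1.26% of all genes. The median standardized difference was then -0.745, beside -0.746 over all genes. The array medians of MSXH 4 and MSXH 6 were 6.52255 and 6.52235, against at most 6.52172 on the other 18 arrays. Under centring 1 of the 41 was at an unadjusted limma p under 0.05, beside 1.03% of all genes, and after quantile normalization 1 of the 28 genes that kept any spread, beside 4.21%. Of those 28, 1 was higher in MSXH, beside 9.48% of all genes, with median standardized differences of -0.447 and -0.572. Every gene given below with the higher mean in MSXH, apart from markers of other cell types and acute phase genes, had the lower mean under centring. Centring shifts all genes on an array by the same amount, and array medians differed by more than the SD of the median gene, 12.1 millionths. The lower mean under centring was therefore shared by nearly all genes and cannot be read as a reversal of a single gene. The standardized differences ran from -1.14 to 1.01, the intervals of 3 genes excluded 0 before any adjustment, and the values of the groups overlapped for all 41 genes (0.022% of all genes did not overlap). The intervals of 33 of the 41 reached beyond 1 SD in one direction or the other, so alike levels were not shown.

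**Figure D1:**
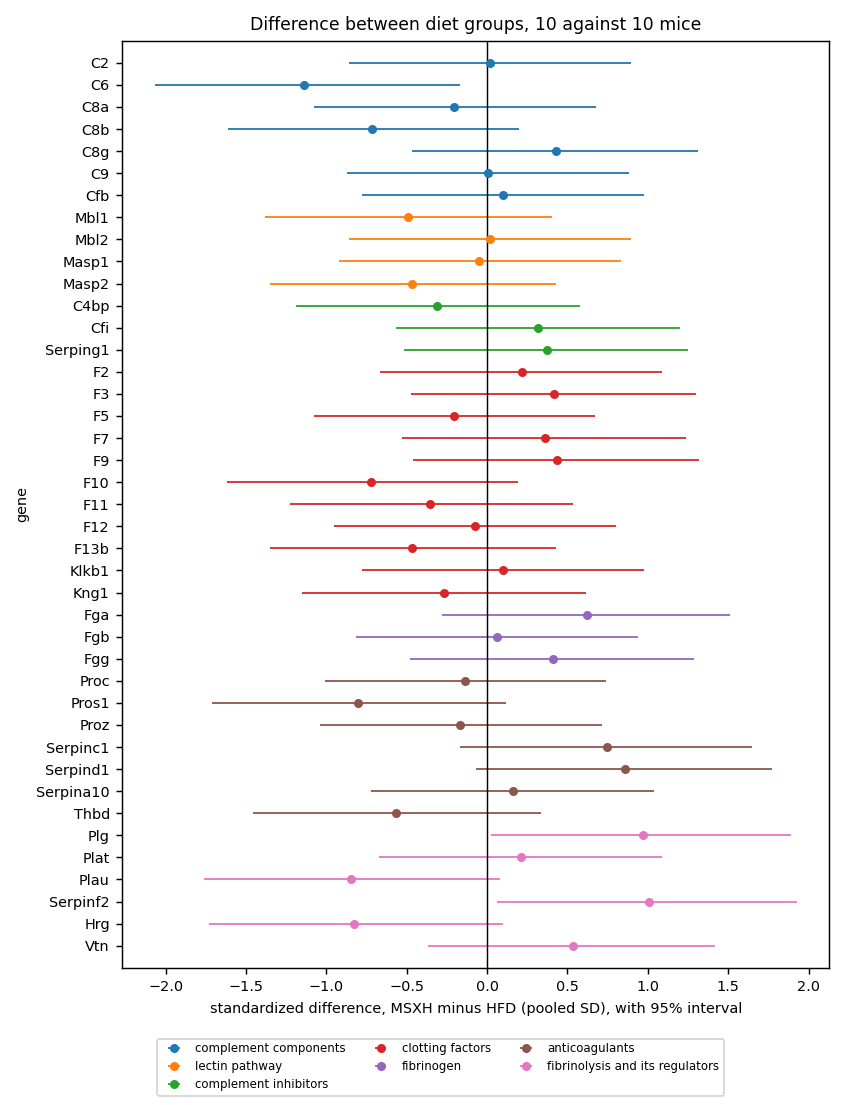
Standardized difference between MSXH and HFD (horizontal axis, in pooled SD within groups) for each of the 41 genes (vertical axis), coloured by role, with lines for the 95% interval over 10 against 10 mice. The points run from -1.14 for C6 to 1.01 for Serpinf2, and the intervals of C6, Plg and Serpinf2 do not reach 0.

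Among the complement components, 4 of 7 had the higher mean in MSXH and 3 the lower (5 of 7 higher without MSXH 4 and 6), and 1 was at an unadjusted p under 0.05. C6 encodes the protein that joins C5b to start the membrane attack complex. Its deviations ran from -64.2 over a median of 45.7 to 117 millionths in HFD and from -92.2 over -31.1 to 38.6 in MSXH. HFD 6 and HFD 1 were the highest mice and MSXH 5 the lowest, and the ranges overlapped. The standardized difference of C6 was -1.14 (interval -2.07 to -0.172), and the MSXH mouse was higher in 20 of the 100 possible pairings of 1 mouse from each diet (limma p 0.0182, adjusted p 0.359). It was 0.0484 without MSXH 4 and 6 and with quantile normalization. C8b encodes the beta chain of C8, which binds C5b-7. C8b ran from -65.4 over 24.2 to 99.0 in HFD and from -89.9 over -24.1 to 51.1 in MSXH, a standardized difference of -0.715 (-1.61 to 0.201; limma adjusted p 0.581). The alpha and gamma chains of C8 stood at -0.204 (C8a) and 0.428 (C8g), so the chains of this protein did not share a sign. C9, which polymerizes into the pore, ran from -17.3 to 21.2 in HFD and from -33.4 to 12.8 in MSXH, around medians of -3.31 and 5.62, and stood at 0.00708 (-0.870 to 0.884). C2, the protease of the classical and lectin C3 convertase, ran from -153 to 112 in HFD and from -140 to 147 in MSXH, with medians of 7.37 and -6.79, and stood at 0.0174 (-0.859 to 0.894). Cfb, the matching protease of the alternative pathway, stood at 0.10.

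In the lectin pathway 1 of 4 genes had the higher mean in MSXH, with and without MSXH 4 and 6, and none was at an unadjusted limma p under 0.05. Mbl1 and Mbl2 encode mannose-binding lectins, which recognise sugars on microbes. Mbl2 ran from -1453 over a median of 61.3 to 1130 millionths in HFD and from -932 over -11.8 to 1051 in MSXH, with a standardized difference of 0.0195 (-0.857 to 0.896). Mbl1 ran from -712 over 208 to 626 in HFD and from -1063 over -73.5 to 556 in MSXH, with a standardized difference of -0.492 (-1.38 to 0.406). Both lectin genes were among the 6 members of largest spread between mice, HFD 9 was the lowest HFD mouse in both, and the groups overlapped. Masp2, the lectin-bound protease that cleaves C4 and C2, ran from -24.3 over 1.62 to 24.0 in HFD and from -46.8 over -3.44 to 41.4 in MSXH, and stood at -0.468 (-1.35 to 0.428). Masp1, whose protease activates that of Masp2, stood at -0.0478. Of the complement inhibitors, Serping1 (the C1 inhibitor) stood at 0.374 (-0.516 to 1.25) and Cfi, the protease that cuts C3b and C4b, at 0.317 (-0.570 to 1.2). Serping1 ran from -3.44 over -0.843 to 4.94 in HFD and from -5.29 over -0.0375 to 7.04 in MSXH. C4bp, the cofactor for the cutting of C4b, ran from -81.8 over 25.7 to 72.3 in HFD and from -58.6 over -4.11 to 53.5 in MSXH, and stood at -0.312 (-1.19 to 0.575). The higher mean in MSXH was found for 2 of these 3 inhibitors, with and without MSXH 4 and 6, and none was at an unadjusted limma p under 0.05.

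Of the 11 clotting factors other than fibrinogen, 5 had the higher mean in MSXH and 6 the lower, with a median of -0.0743, and none was at an unadjusted limma p under 0.05. Without MSXH 4 and 6, 7 of 11 were higher with a median of 0.132, while the median of all 41 genes went from 0.0174 to 0.162. F10 encodes factor X, which converts prothrombin to thrombin. F10 ran from -4.31 over 3.04 to 4.94 in HFD and from -6.18 over -1.31 to 2.10 in MSXH. Of the 10 mice on HFD, 6 lay above every MSXH mouse and 3 lay below the MSXH median, so the ranges overlapped at the low end. Its standardized difference was -0.722 (-1.62 to 0.195), and the MSXH mouse was higher in 30 of 100 pairs (limma adjusted p 0.615). F11, a zymogen of the contact pathway, was the clotting factor of largest spread, from -540 over 73.5 to 449 in HFD and from -288 over -61.8 to 358 in MSXH, and stood at -0.353 (-1.23 to 0.536). F2, prothrombin, had an SD of 0.787 millionths over the 20 mice and ran from -1.87 over 0.0500 to 0.870 in HFD and from -1.16 over 0.335 to 1.08 in MSXH, and stood at 0.217 (-0.666 to 1.09). F3 encodes tissue factor, which starts coagulation and is known from cells outside the blood. It ran from -74.8 over -21.5 to 80.4 in HFD and from -50.1 over -20.2 to 140 in MSXH, where MSXH 10 was the highest, and stood at 0.418 (-0.475 to 1.30). The other clotting factors stood between -0.470 (F13b, the carrier subunit of factor XIII) and 0.434 (F9, the factor whose lack causes haemophilia B). Those of the contact system stood at -0.0743 (F12), 0.10 (Klkb1, prekallikrein) and -0.271 (Kng1, kininogen).

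All 3 fibrinogen chains had the higher mean in MSXH, with and without MSXH 4 and 6, and the lower under centring of all 20 arrays, with no member at an unadjusted limma p under 0.05. Fga, the alpha chain, ran from -46.3 over -8.28 to 43.4 in HFD and from -18.7 over 5.24 to 34.5 in MSXH, a standardized difference of 0.623 (-0.284 to 1.51). Fgg, the gamma chain, ran from -3.73 over -0.788 to 4.39 in HFD and from -1.68 over 0.168 to 3.10 in MSXH, with a difference of 0.410 (-0.482 to 1.29). The HFD range was the wider in both genes and enclosed the MSXH range. Fgb, the beta chain, stood at 0.0598 (-0.818 to 0.936).

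Among the 7 anticoagulants 3 had the higher mean in MSXH, with a median of -0.138, and none was at an unadjusted limma p under 0.05. Without MSXH 4 and 6, 5 of 7 were higher with a median of 0.162, which was also the median of all 41 genes then. Serpind1 encodes heparin cofactor II, an inhibitor of thrombin. It ran from -122 over -5.31 to 24.4 in HFD and from -53.4 over 21.6 to 91.8 in MSXH, with a standardized difference of 0.859 (-0.0712 to 1.77), and the MSXH mouse was higher in 72 of 100 pairs (limma adjusted p 0.499). Quantile normalization turned it to -0.357. Serpinc1, antithrombin, ran from -1.29 over -0.151 to 0.725 in HFD and from -0.566 over 0.315 to 0.775 in MSXH, a standardized difference of 0.748 (-0.171 to 1.65; limma adjusted p 0.620). HFD 4 was the lowest of the 20 mice in both inhibitors. Pros1, protein S, the cofactor of activated protein C, ran from -587 over 123 to 1104 in HFD and from -584 over -201 to 408 in MSXH. HFD 10 and HFD 9 were the highest mice, and the standardized difference was -0.805 (-1.71 to 0.120; limma adjusted p 0.530). Quantile normalization turned it to 0.156, and to 0.937 without MSXH 4 and 6. Proc, protein C itself, stood at -0.138. Serpina10, the protein Z-dependent inhibitor of factor Xa, ran from -1109 over -133 to 880 in HFD and from -557 over 53.0 to 679 in MSXH and stood at 0.161 (-0.720 to 1.04), and Proz, its cofactor, at -0.167. Thbd encodes thrombomodulin, the endothelial receptor that turns thrombin to the activation of protein C. It had the largest SD of the 41 genes, 1647 millionths, and ran from -2290 over 340 to 3004 in HFD and from -2387 over -737 to 1658 in MSXH, with a standardized difference of -0.569 (-1.46 to 0.334). Of the 7 liver endothelial markers, 2 had the higher mean in MSXH and 5 the lower, with a median of -0.182, against 4 higher and a median of 0.00105 without MSXH 4 and 6. Their mean level ran from 8.4704 to 8.4715 in HFD and from 8.4699 to 8.4720 in MSXH. Their part in the values of Thbd was not tested. In such bulk samples fewer cells of a type and less RNA per cell cannot be told apart.

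In the fibrinolysis group 4 of 6 genes had the higher mean in MSXH, with and without MSXH 4 and 6, and 1 was at an unadjusted p under 0.05. Serpinf2 encodes alpha 2-antiplasmin, the main inhibitor of plasmin. It ran from -35.2 over -11.8 to 21.1 in HFD and from -27.5 over 17.6 to 45.8 in MSXH. MSXH 6 and MSXH 8 were the highest mice, 7 MSXH mice lay above 9 of the HFD mice, and the ranges overlapped. The standardized difference was 1.01 (0.0612 to 1.93), with the MSXH mouse higher in 75 of 100 pairs (limma p 0.0336, adjusted p 0.411), and 1.07 without MSXH 4 and 6. Quantile normalization gave -0.447, which was also the value of C8b and F10 and the median of the 28 genes that kept any spread. A single low MSXH array gives this value when all other arrays are tied, so it cannot be read as a turned difference between diets. Plg, plasminogen, the zymogen of plasmin, ran from -2.43 over -0.121 to 1.34 in HFD and from -0.306 over 0.444 to 1.11 in MSXH. HFD 10 and HFD 4 were the lowest mice, and the standardized difference was 0.967 (0.0240 to 1.89; limma p 0.0568, adjusted p 0.481). Plau encodes urokinase, an activator of plasminogen. It ran from -8.83 over 7.14 to 15.8 in HFD and from -32.6 over -2.66 to 8.83 in MSXH, where MSXH 5 was the lowest, and stood at -0.850 (-1.76 to 0.0793; limma adjusted p 0.506), while its other probe set stood at 0.161. Hrg, histidine-rich glycoprotein, which binds plasminogen and heparin, ran from -4.49 over 2.68 to 5.99 in HFD and from -9.87 over -2.56 to 6.60 in MSXH and stood at -0.828 (-1.73 to 0.0991; limma adjusted p 0.519). Plat, the tissue activator of plasminogen, stood at 0.213 and Vtn, vitronectin, at 0.536.

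**Figure D2:**
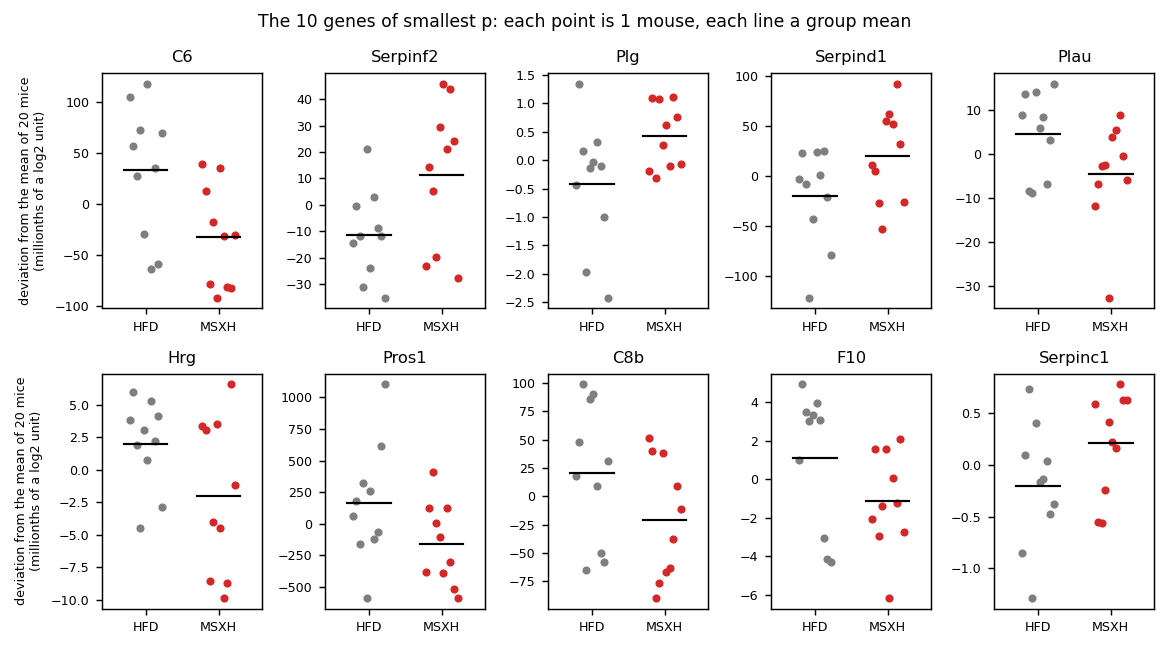
Deviation of each mouse from the mean of the 20 mice (vertical axes, in millionths of a log2 unit) in HFD and MSXH for the 10 genes of smallest unadjusted p, with 1 point per mouse and a line at each group mean. The points of the groups overlap in every panel, and the highest Pros1 mouse, HFD 10, stands at 1104 millionths.

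Probe sets of the same gene did not always move together across mice. With group means removed, the correlation of the probe set used with another of its gene was 0.941 and 0.886 for C2, 0.854 for Vtn and 0.822 for F5 (Pearson's r over 20 mice, a description). It was 0.674 for Proz and 0.426 for Kng1. It ran from -0.132 to 0.10 for the other 4 probe sets of Masp1, and was 0.168 and 0.267 for F10, 0.154 for Masp2, 0.082 for Plau and 0.019 for Plat. In a fit of all 34945 probe sets, 4 of the 56 were at an unadjusted limma p under 0.05, against 10.7% of all. They were C6 and Serpinf2, 1 further probe set of F10 at -1.08 and 1 of F5 at -0.924, and none passed an adjusted p of 0.05. Both genes had a negative difference in each of their probe sets. Plau, Masp2, Vtn and C2 had probe sets of both signs, none at an unadjusted limma p under 0.05.

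Of 54 other genes of these pathways, 39 were measured, of which 17 had the higher mean in MSXH, or 22 without MSXH 4 and 6, and 0 under centring. None passed an adjusted p of 0.05 by limma. At an unadjusted p under 0.05, 3 had the higher mean and 1 the lower, against 6.58% and 4.31% of all genes. Procr, the endothelial receptor of protein C, stood at 1.77 (0.706 to 2.80), with the MSXH mouse higher in 92 of 100 pairs (limma adjusted p 0.197), and had the lower mean in MSXH under centring. Cr2, a complement receptor of B cells, stood at 0.955, F13a1, the catalytic subunit of factor XIII, at 0.926, both lower under centring, and A2m, the protease inhibitor alpha 2-macroglobulin, at -0.972. Of 10 transcription factors of liver genes that were measured, 3 had the higher mean in MSXH and 7 the lower, with and without MSXH 4 and 6, and 0 the higher under centring. Cebpa, which binds the promoters of many plasma protein genes, stood at 1.58 (0.545 to 2.57; limma adjusted p 0.229), with the lower mean in MSXH under centring. The related factors Cebpb and Cebpd stood at -0.589 and -0.574, Foxa1 at -0.914 and Hnf4a at -0.168. Acute phase genes, 10 of 10 measured, were higher in mean in 6 and had a median of 0.102. Without MSXH 4 and 6, 8 were higher, and under centring 1.

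Within each diet, mice differed from one another in these genes together. Over the 820 pairs of the 41 genes, with group means removed, the median Pearson's r over the 20 mice was 0.300, and 73.5% of the pairs were above 0, beside a median of 0.001 and 50.1% over all pairs of the 18193 genes. For the 613 genes with a mean level above 11 the median was 0.017. An r of 0.5 or more was found for 31.6% of the pairs of the 41 genes, 3.56% of all pairs and 11.6% of the pairs of genes above level 11. The median was 0.372 within HFD, 0.225 within MSXH and 0.266 without MSXH 4 and 6. These correlations are descriptions: the genes share the arrays and RNA samples, and no p was computed for the list.

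By mouse, the median deviation of the 41 genes (in SD of each gene) was lowest in HFD 4, at -1.03, where 5 genes lay above their own mean, and in HFD 9 (-0.833), MSXH 3 (-0.820) and MSXH 4 (-0.801). It was highest in MSXH 9, at 0.828, followed by HFD 3 (0.780), HFD 2 (0.749) and MSXH 5 (0.681). Low and high mice were thus found on both diets. Over all genes the same median lay between -0.143 and 0.132, and its correlation with that of the 41 genes over the 20 mice was 0.179, with 0.472 within HFD and -0.140 within MSXH. With the median of the genes above level 11 the correlation was 0.668 (0.760 within HFD and 0.554 within MSXH). With that of the 7 Kupffer cell and macrophage markers it was 0.653 (0.566 and 0.802), and with hepatocyte markers -0.470 (-0.438 and -0.522). It was 0.081 with acute phase genes (-0.013 and 0.166), -0.041 with liver endothelial markers (-0.182 and 0.188) and -0.329 with skeletal muscle markers (0.076 and -0.544). The Kupffer cell markers and the genes above level 11 thus had a positive correlation in both diets, and the hepatocyte markers a negative one. Of the hepatocyte markers, Ttr, Serpina1c, Apoa1 and Alb had SDs of only 0.0506 to 0.286 millionths, with tied values between mice. Hnf4a, Cps1 and Tat had SDs of 24.4 millionths or more. The correlation with these markers is therefore no measure of hepatocyte content. Most of the 41 genes, such as F2, Fgg, C9 and Proc, are themselves above level 11, so these sets overlap. The mean level of the Kupffer cell markers ran from 8.3289 to 8.3314 in HFD and from 8.3288 to 8.3322 in MSXH, 6 of 7 had the higher mean in MSXH (7 without MSXH 4 and 6, and 1 under centring), and their part in the result was not tested.

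**Figure D3:**
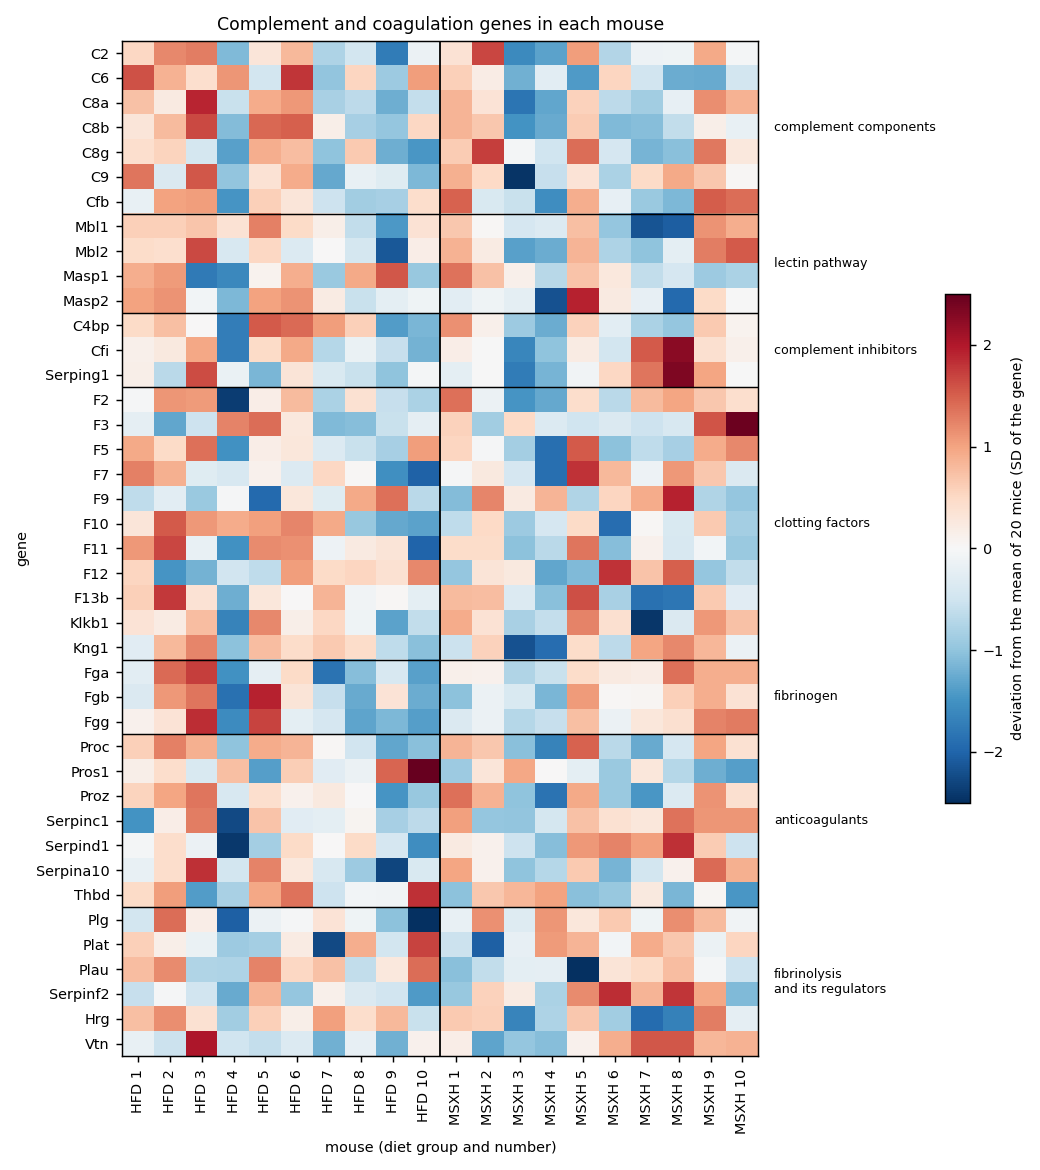
Deviation of each of the 41 genes (rows, grouped by role) from its mean over the 20 mice, in SD of the gene (colour), for each mouse (columns, HFD left and MSXH right of the line). HFD 4 and MSXH 4, at median deviations of -1.03 and -0.801, are blue in most rows, and MSXH 9, at 0.828, is red in most rows.

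The shared variation differed by role. The 21 pairs of complement components all had r above 0, with a median of 0.614, and the 3 pairs of fibrinogen chains ran from 0.727 to 0.862. Medians were 0.400 for the lectin pathway, 0.389 for complement inhibitors and 0.259 for clotting factors. They were 0.085 for anticoagulants and 0.054 for fibrinolysis, whose pairs were positive in 11 of 21 and 9 of 15. The fibrinolysis group includes Plat and Plau, which stood below every array median. The probe sets of each had an r of only 0.019 (Plat) and 0.082 (Plau) with one another. Of the 41 genes, 35 had a positive median r with the other 40. Proc had the highest of these medians, at 0.613, and its closest partner was Proz, at 0.933, the highest r of the anticoagulants. The 6 genes with a negative median were Pros1 (-0.366), F9 (-0.291), F12 (-0.232), Thbd (-0.108), Plau (-0.068) and Plat (-0.055). F9 had its lowest r with Mbl1, at -0.848, and its highest with F12, at 0.539, while Pros1 had its lowest with Fgg, at -0.673, and its highest with Thbd, at 0.506. These extremes were picked from all pairs.

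**Figure D4:**
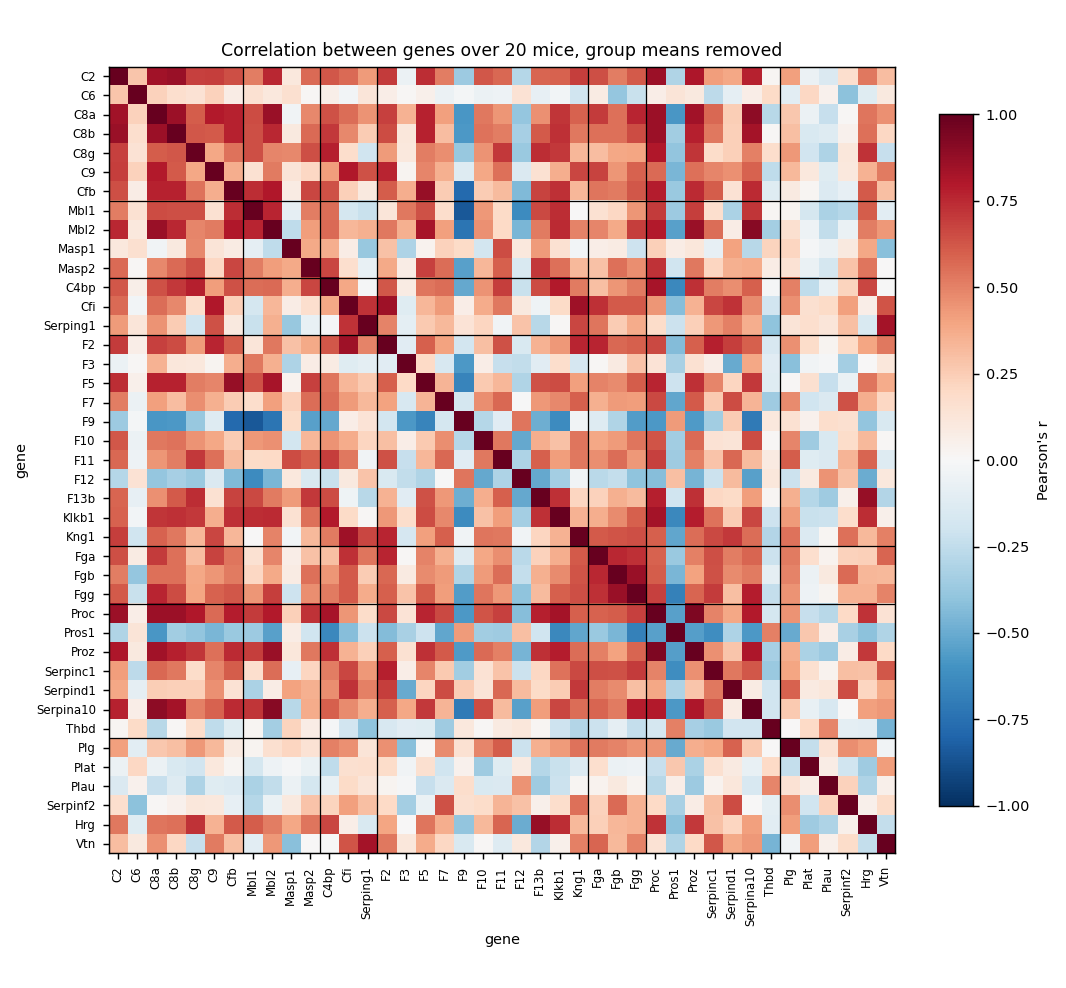
Pearson's r between the 41 genes over 20 mice with group means removed (colour from -1 to 1), with genes in the same order on both axes and lines between the roles. Most cells are red, with 73.5% of the pairs above 0, while the rows of F9, F12 and Pros1 are mostly blue.

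For 16 pairs listed by function or position, correlation was tested by permutation of mice within diets (100000 permutations, two-sided, Benjamini-Hochberg over the 16 pairs). Of these, 12 passed an adjusted p of 0.05 by Pearson's r, 11 of them positive and 1 negative, and 13 by Spearman's rho. The chains of fibrinogen are encoded side by side on chromosome 3 (GRCm38.p6: Fgg at 83007724 to 83015056, Fga at 83026153 to 83033627, Fgb at 83042246 to 83049863) and are joined into 1 protein in the cell. For Fgb and Fgg r was 0.862 (permutation p 1e-05, the smallest possible, adjusted 0.00016) and rho 0.830 (adjusted permutation p 0.000288), with 0.878 within HFD and 0.815 within MSXH, and 0.801 with the 2 mice most distant from the Fgb median left out. For Fga r was 0.752 with Fgb and 0.727 with Fgg (adjusted permutation p 0.00213 and 0.00322), and rho 0.847 and 0.789. HFD 3 was the highest mouse for Fga and Fgg and HFD 5 for Fgb, while HFD 4 was the lowest for Fgb and Fgg and HFD 7 for Fga.

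The promoters of these 3 genes, which lie side by side and varied together, are shown as the 250 bases before the RefSeq start in GRCm38.p6, 5' to 3', with matches to the searched motifs in capitals.
Fga, promoter, chr3:83025903-83026152, plus strand: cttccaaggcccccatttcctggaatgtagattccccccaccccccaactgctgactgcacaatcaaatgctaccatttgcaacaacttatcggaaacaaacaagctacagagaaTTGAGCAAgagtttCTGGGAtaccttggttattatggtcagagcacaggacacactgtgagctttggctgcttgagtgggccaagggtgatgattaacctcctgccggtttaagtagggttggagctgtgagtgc
Fgb, promoter, chr3:83049864-83050113, minus strand: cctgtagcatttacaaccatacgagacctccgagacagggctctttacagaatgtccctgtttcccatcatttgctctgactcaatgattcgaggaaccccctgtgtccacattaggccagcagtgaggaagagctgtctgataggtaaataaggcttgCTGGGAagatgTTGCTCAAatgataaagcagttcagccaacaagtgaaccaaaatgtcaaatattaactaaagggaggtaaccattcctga
Fgg, promoter, chr3:83007474-83007723, plus strand: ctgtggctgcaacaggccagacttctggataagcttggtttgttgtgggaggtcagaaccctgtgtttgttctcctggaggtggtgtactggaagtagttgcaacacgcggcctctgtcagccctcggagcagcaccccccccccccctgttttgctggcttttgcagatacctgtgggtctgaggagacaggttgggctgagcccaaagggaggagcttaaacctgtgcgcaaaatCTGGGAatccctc
The motifs were searched on both strands. They were TTGCNNAA, a core of sites for C/EBP factors, CTGGGA, the core of interleukin-6 response elements known from fibrinogen genes, the HNF1 motif and CAAAGTCCA for HNF4. The C/EBP core starts at base 116 of the Fga sequence, on the minus strand, and at base 171 of Fgb, on the plus strand. CTGGGA starts at base 130 in Fga, 160 in Fgb and 238 in Fgg, on the plus strand in each. Promoter windows were matched for 29 of the 41 genes. The C/EBP core was present in 23.3% of their 30 windows and in 9.56% of all 32851, CTGGGA in 40% and 27%, the HNF1 motif in 6.67% (C4bp and F13b) and 0.371%, and the HNF4 motif in 0% and 0.384%. CTGGGA was present in the windows of 12 genes, among them all 3 fibrinogen chains and also F9 and Pros1, which had negative median correlations with the other genes. A match to such short letters is a description and no binding site.

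C8a and C8b, which are neighbours on chromosome 4 (C8b at 104766317 to 104804548, C8a at 104815679 to 104876487), had an r of 0.856 and a rho of 0.808 (adjusted permutation p 0.00016 for both), and 0.845 within HFD and 0.875 within MSXH. C8g, the chain encoded on chromosome 2, had r of 0.606 with C8a and 0.623 with C8b (adjusted permutation p 0.0119 and 0.00965). Proz and Serpina10, a cofactor and its inhibitor, had an r of 0.811 and a rho of 0.847 (adjusted permutation p 0.00016 for both). F2 and Serpinc1, thrombin's precursor and its inhibitor, had 0.779 and 0.710 (0.00056 and 0.00226). Mbl1 and Mbl2, on chromosomes 14 and 19, had 0.758 and 0.871 (0.00122 and 0.00016). With the 2 mice most distant from the first gene's median left out, r was 0.821 for C8a and C8b, 0.779 for Proz and Serpina10, 0.631 for F2 and Serpinc1 and 0.862 for Mbl1 and Mbl2. C2 and Cfb, neighbours on chromosome 17, had an r of 0.647 and a rho of 0.681 (adjusted permutation p 0.00666 and 0.00342), with 0.855 within HFD and 0.510 within MSXH.

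Proc and Pros1, whose products act together, were the pair that passed with a negative sign: r was -0.544 and rho -0.531 (adjusted permutation p 0.0198 and 0.0301), with -0.643 within HFD (permutation p 0.040) and -0.453 within MSXH (permutation p 0.187). Leaving out the 2 mice most distant from the Proc median gave -0.500. Plg and Serpinf2 had an r of 0.465 and a rho of 0.471 (adjusted permutation p 0.0242 and 0.0455). It was 0.680 within HFD and 0.376 within MSXH (permutation p 0.030 and 0.275), 0.586 without MSXH 4 and 6, and 0.312 with the 2 mice most distant from the Plg median left out. The pairs that did not pass by Pearson's r were F7 and F10 at 0.462, F11 and Klkb1 at 0.417, Hrg and Kng1 at 0.327 and F3 and F7 at -0.163 (adjusted permutation p 0.0571, 0.071, 0.228 and 0.503). F7 and F10 passed by rho (0.505, adjusted permutation p 0.0369). F7, F10 and Proz lie in a row on chromosome 8, and F11 next to Klkb1 on the same chromosome. Hrg and Kng1, near each other on chromosome 16, had an r of 0.783 once the 2 mice most distant from the Hrg median were left out.

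**Figure D5:**
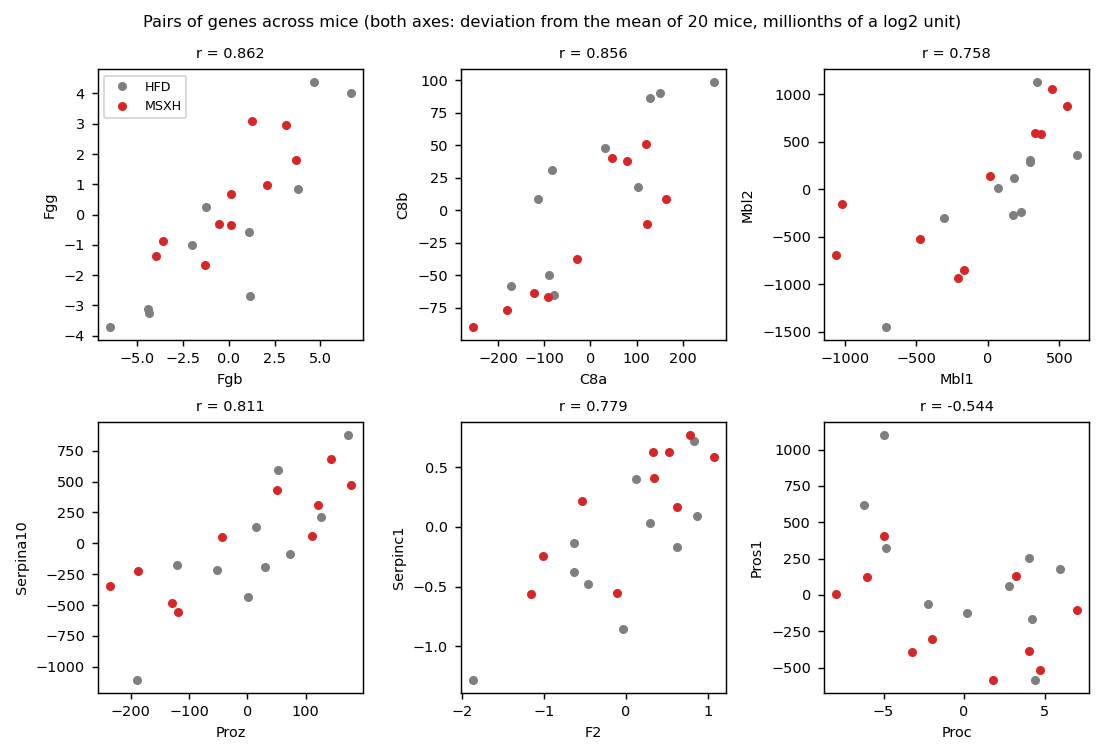
Deviation from the mean of 20 mice in millionths of a log2 unit for 6 of the 16 pairs, the first gene on the horizontal and the second on the vertical axis, with 1 point per mouse, grey for HFD and red for MSXH. The points rise together in the first 5 panels (r from 0.758 to 0.862) and fall for Proc and Pros1 (r = -0.544). The pairs shown were picked after their values were seen.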

How the data were processed

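Total RNA of 20 livers, 10 HFD and 10 MSXH, was labelled with biotin for Affymetrix 3' arrays, per the labels. The deposited values, 5.173 to 15.005 over 45101 probe sets, were taken as log2 levels from their range. Log base, summarization software and normalization were not given in the sources used here. Probe sets with exactly 1 symbol (34945) were kept, and for each of 18193 genes the one of highest mean. limma 3.58.1 in R 4.3.3 (lmFit, eBayes with trend, two-sided, Benjamini-Hochberg over all genes, threshold 0.05) compared the groups. Standardized differences have noncentral t intervals at 95%. Code was tested on simulated data. The arrays' number limits the precision, and labels call the samples biological replicates. Replicate numbers did not pair mice (correlations -0.265 to 0.165). Full values are given for 24 genes: the 10 of smallest p, the 6 of largest SD, and those of highest and lowest level in each role. Fgb, C8a and other members are named with single values to complete a group. Members, lists and tests were chosen with earlier results of these data known. Alternatives are described under the processing section. Promoters are RefSeq's (GRCm38.p6). Other steps ran in Python 3.11.15 (numpy 2.4.6; scipy 1.17.1; figures by matplotlib 3.10.9).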

Additional observations from a re-analysis of the deposited data

Results flagged for a closer look

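In 82 groups of 10 mice, 5 values lay far from the rest of their group, by a gap over the group's range above 0.466, and chance alone sets apart about 1 in 20 groups. In C9, MSXH 3 was the lowest MSXH mouse at -33.4 millionths (gap 0.491 of the range). In Plat, MSXH 2 was the lowest at -6.47 (0.485), and in Plau MSXH 5 at -32.6 (0.503). HFD 3 was the highest HFD mouse in Serping1 at 4.94 (0.476) and in Vtn at 6.97 (0.591).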

How the results depend on the processing

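The count of the 41 genes past an adjusted p of 0.05 was 0 under every alternative run. At an unadjusted p under 0.05 it was 2, and 1 after quantile normalization, centring or the rank sum test, 4 with all 56 probe sets, the most variable probe set or array weights, 0 and 1 without MSXH 4 and 6 with centring and with quantile normalization, and 1 to 5 when 1 array was left out. With the replicate number as a block it was 3 and the pairing changed no call. The share of all genes is not given here for the block, array weights or the most variable probe set. Nor is it given for the fits that left out 1 array or that changed the scale without MSXH 4 and 6. The 22 genes higher in MSXH became 0 under centring, 1 of 28 under quantile normalization (13 genes then had no spread left), 2 with centring and 7 of 14 with quantile normalization without MSXH 4 and 6, and 15 to 26 when 1 array was left out. Of all genes, 0 were called, 1 with probe sets averaged per gene, 4 by the rank sum test, 12 at an adjusted p of 0.10 and 0 to 3 when 1 array was left out (3 without HFD 3, and 1 without HFD 6, HFD 9, MSXH 2 or MSXH 3). Of the 10 genes of smallest p, none turned sign in the 20 fits that left out 1 array. These genes were picked for their small p on the same arrays, so this cannot show that their signs are stable. Under centring Serpinc1 stood at -0.746, Serpind1 at -0.676, Plg at -0.746 and Serpinf2 at -0.712, and without MSXH 4 and 6 as well at -0.408, -0.154, -0.406 and -0.281. The median under centring of all 20 arrays was -0.745 over the 41 genes and -0.746 over all genes. Under quantile normalization Pros1 stood at 0.156, Serpind1 at -0.357 and Serpinf2 at -0.447, and without MSXH 4 and 6 as well C6 stood at 0.0484, Pros1 at 0.937 and Plau at 0.112. The medians under quantile normalization of all 20 arrays were -0.447 over the 28 genes with spread and -0.572 over all genes with spread. A value of -0.447 is what a single low MSXH array gives when all other arrays are tied. With the most variable probe set Plau stood at 0.161. Centring put the r of every pair between 0.871 and 1.000 and turned Proc and Pros1 to 0.871. It shifts every gene on an array by the same amount, so both genes of a pair receive the same change. Where that change exceeds the spread of the genes, r rises by arithmetic. The r under centring therefore cannot show whether a pair, Proc and Pros1 included, varied together or apart. The array medians ran from 6.52156 to 6.52255, while the median gene had an SD of 12.1 millionths of a log2 unit. The cause of the differences between array medians, and of the other changes, was not tested.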
